A study of Mus musculus with 2 samples.

Results

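The uptake transporters described here were the mouse genes of 3 carrier families, the organic anion transporting polypeptides (Slco), the organic cation, carnitine and organic anion transporters (Slc22a) and the multidrug and toxin extrusion proteins (Slc47a). They were picked by gene symbol alone, although earlier results of these data were known. Those described numbered 40 of the 20317 genes with a symbol among the mRNAs. Of these, 14 were Slco, 24 Slc22a and 2 Slc47a genes, represented by 49 RefSeq transcripts, and each gene was described by its transcript with the highest mean level. The mRNA levels came from RNA sequencing of primary hepatocytes of wild-type C57BL/6J mice, with 1 library from mice given intraperitoneal oil and 1 library from mice given CCl4, a solvent whose breakdown products injure hepatocytes and whose repeated injection causes liver fibrosis. The CCl4 mice received a 20% solution in mineral oil at 2.5 ml CCl4 per kilogram, 2 times a week, for 8 weeks per the labels and 4 weeks per the methods. The methods give male mice, 5 weeks old when obtained, and hepatocytes purified by pronase and collagenase perfusion and a density gradient. How many mice stood behind each library is not given in the sources used here. With 1 library per group no difference has a replicate check, no p-value is given, and the error stated is that of read counting alone.

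Hepatocytes take up bile acids, bilirubin, hormones and drugs from sinusoidal blood before they are metabolized and secreted into bile. Slco carriers bring in mainly large organic anions without sodium, whereas Slc22a carriers move smaller cations, anions and the zwitterion carnitine. Slc47a carriers exchange organic cations for protons and work mainly in the outward direction, so they are the exit partners of Slc22a cation uptake rather than uptake carriers. In mice the liver is known for a few abundant members of these families, and many other members belong to the kidney, brain or testis.

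Most of these genes were below the listing limit in both libraries. Levels are given as RPKM, that is, reads scaled to transcript length and to the size of the library, and no value between 0 and 1 RPKM appears in the table, so that a listed 0 stands for anything under 1 RPKM. Only 14 of the 40 genes (35.0%) had a value in either library, against 59.1% of all genes. A value in both libraries was found for 12 genes, Slc22a17 was listed only in the CCl4 library and Slc22a28 only in the oil library. The kidney carriers Slc22a2, Slc22a6, Slc22a8, Slc22a12 and Slco4c1, the brain carrier Slco1c1, and the testis genes Slco6c1, Slco6d1 and Slc22a16 were among the 26 genes listed at 0 in both libraries. The others at 0 were Slc22a3, Slc22a4, Slc22a13, Slc22a14, Slc22a15, Slc22a19, Slc22a20, Slc22a21, Slc22a22, Slc22a26, Slc22a27, Slc22a29, Slc47a2, Slco1a5, Slco1a6, Slco4a1 and Slco5a1.

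Several hepatocyte carriers were lower in the CCl4 library. Slco1b2, Slco1a1, Slc22a30 and Slc22a7 each lost more than 1 on the log2 scale, whereas Slco3a1 gained slightly more than 1 (fold changes were computed as log2 of CCl4 over oil with 0.1 RPKM added to both). Thus 4 of the 12 genes with a value in both libraries (33.3%) were lower by at least this fold, a limit that 5.48% of all 10689 genes met in that direction. Another 1 of 12 (8.33%) was higher, against 14.3% of all genes. The remaining 7 genes were within the limit, 4 of them lower and 3 higher. On the log2 scale the 12 genes had a median of -0.76, and all genes one of 0.30. After scaling both libraries to the median gene, 7 of 12 were lower and none was higher by the limit, against 9.74% and 8.01% of all genes. In RNA from a purified cell population, fewer hepatocytes and less of an mRNA per hepatocyte cannot be told apart.

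**Figure D1:**
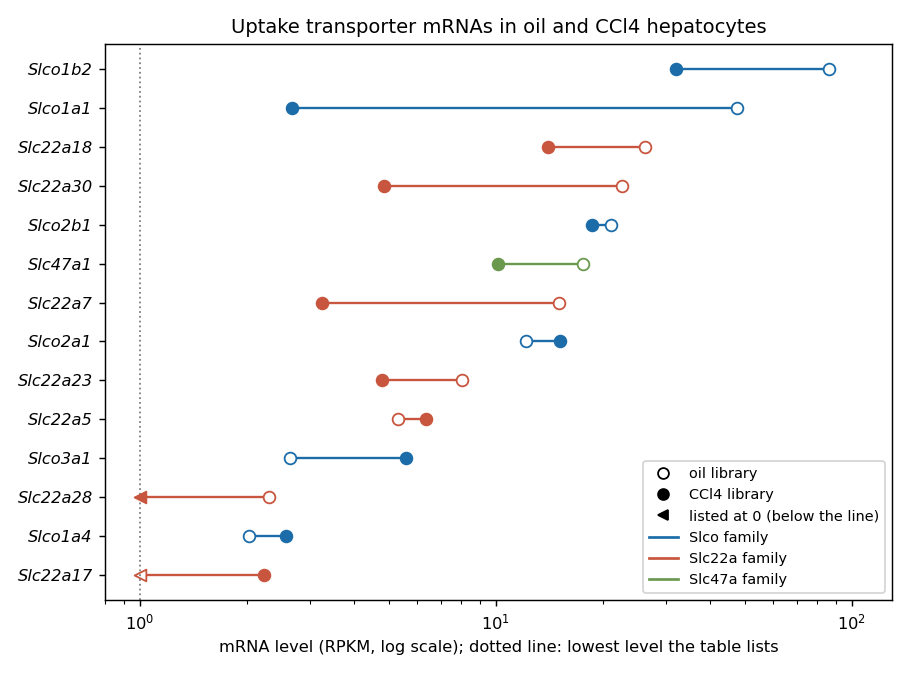
Level of each of the 14 listed uptake transporter mRNAs (RPKM, log scale) in the oil library (open symbols) and the CCl4 library (filled symbols), colored by family, with triangles at the listing limit for values listed at 0. The lines of Slco1a1, Slc22a30 and Slc22a7 are the longest, and Slco1b2 is the highest of these genes in both libraries.

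To show what lies at the start sites of the lower carriers, 250 bases are printed before the start site that the RefSeq promoter table (GRCm38.p6) gives, for those whose promoter it holds. These were Slco1b2 on chr6:141629268-141629517 of the plus strand, Slco1a1 on chr6:141946963-141947212 of the minus strand, and Slc22a30 on chr19:8405106-8405355 of the minus strand. That start site can lie inside the gene as the RefSeq gene table bounds it, and the last 66 bases of the Slco1b2 sequence and the last 6 of the Slc22a30 sequence do, but none of the Slco1a1 sequence. Slc22a7 and Slco3a1 were not matched. Capitals mark matches, on either strand, to 5 fixed letter patterns of liver transcription factors.
Slco1b2: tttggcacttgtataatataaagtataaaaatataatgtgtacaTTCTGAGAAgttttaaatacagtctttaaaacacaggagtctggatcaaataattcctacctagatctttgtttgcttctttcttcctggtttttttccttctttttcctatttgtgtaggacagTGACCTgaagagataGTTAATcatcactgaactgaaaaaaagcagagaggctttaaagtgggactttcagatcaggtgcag
Slco1a1: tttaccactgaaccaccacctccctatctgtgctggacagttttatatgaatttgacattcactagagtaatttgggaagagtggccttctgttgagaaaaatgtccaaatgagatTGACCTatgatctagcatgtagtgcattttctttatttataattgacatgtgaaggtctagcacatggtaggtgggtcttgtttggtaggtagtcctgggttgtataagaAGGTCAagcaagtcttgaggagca
Slc22a30: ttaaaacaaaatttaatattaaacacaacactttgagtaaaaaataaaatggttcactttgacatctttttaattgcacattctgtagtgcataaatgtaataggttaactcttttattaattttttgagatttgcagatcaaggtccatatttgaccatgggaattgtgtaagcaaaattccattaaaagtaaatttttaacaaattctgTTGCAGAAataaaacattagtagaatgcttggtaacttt

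The searched patterns were GTTAAT for HNF1, CAAAGTCCA for HNF4, TTGCNNAA for C/EBP, TTCNNNGAA for STAT5 and AGGTCA for nuclear receptors. In the Slco1b2 sequence the matches were TTCTGAGAA at -206 to -198, TGACCT, the reverse of the nuclear receptor pattern, at -81 to -76, and GTTAAT at -66 to -61, counted from -1 as the last base before that start site. The GTTAAT match thus begins at the first base of Slco1b2 in the gene table. The Slco1a1 sequence held the nuclear receptor pattern at -134 to -129 in reverse and at -24 to -19 forward, and the Slc22a30 sequence held TTGCAGAA at -39 to -32. Over all 32851 promoter windows of this length, the HNF1 pattern was present in 6.43%, the HNF4 pattern in 0.384%, the C/EBP pattern in 9.56%, the STAT5 pattern in 7.02% and the nuclear receptor pattern in 14.0%. Among the 40 windows of the 35 transporter genes matched by symbol, 4, 0, 5, 7 and 5 held them in the same order. Each pattern is short, so a match describes letters only. Slc22a29, next to Slc22a30 on chromosome 19, and Slc22a28, the gene beyond it, carried the same TTGCAGAA at -15 to -8 and at -33 to -26.

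Slco1a1, a sinusoidal carrier of steroid conjugates and bile acids, had the largest difference of the 12 genes. It stood at 47.7 RPKM with oil and at 2.67 RPKM with CCl4, so that 5.59% of the oil level remained. The log2 fold change was -4.11, which is rank 11 from the lowest among 10689 genes. The steps between RPKM values allow the reads to be recovered as lower bounds, here at least 10169 and at least 634. Counting error alone placed the log2 ratio of the reads between -4.28 and -4.04 (95% exact Clopper-Pearson interval). The gene lies on chromosome 6 from 141907281 to 141946962 (GRCm38).

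Slco1b2, the liver carrier of bilirubin, bile acids and many drugs, was the most abundant of the genes described in both libraries. Its level was 86.1 RPKM with oil and 32.1 RPKM with CCl4. The log2 fold change was -1.42 (interval of the read ratio -1.48 to -1.37), and its place among all genes by level went from 568 to 1384. In the oil library Slco1b2 was 1.81 times as abundant as Slco1a1, and in the CCl4 library 12 times.

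The remaining listed gene of this cluster was not lower. Slco1a4, which carries bile acids and cardiac glycosides and is also a carrier of vascular endothelium in the brain, had 2.03 RPKM with oil and 2.56 RPKM with CCl4. The difference of 0.32 on the log2 scale was close to that of the median gene and became 0.03 after scaling to it. Along chromosome 6 the order is Slco1c1, Slco1b2, Slco1a4, Slco1a1, Slco1a6 and Slco1a5, from 141524354 to 142322981. Slco1a4 thus lies between the 2 lower genes, with 118791 bases to Slco1b2 and 50996 bases to Slco1a1. The 3 outer genes Slco1c1, Slco1a6 and Slco1a5 were listed at 0. In the oil library Slco1a1 was 23.5 times as abundant as Slco1a4, and in the CCl4 library 1.04 times, where the counting intervals of the 2 levels overlapped. Those intervals rest on reads recovered as lower bounds and can be too wide. The Slco1a genes are similar in sequence, and how the authors treated reads that match several genes is not given in the sources used here.

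The remaining Slco genes, which serve a broader range of tissues, were not lower by the fold limit. Slco2b1, a carrier of steroid sulfates, was at 21.0 and 18.6 RPKM in oil and CCl4, with a log2 fold change of -0.17. Its 3 transcripts gave nearly the same levels, from 19.9 to 21.0 RPKM in oil and from 17.8 to 18.9 RPKM in CCl4. Slco1b2 was 4.10 times as abundant as Slco2b1 in the oil library and 1.72 times in the CCl4 library. Slco2a1, the prostaglandin transporter, had 12.2 RPKM with oil and 15.1 RPKM with CCl4. The difference was 0.31 on the log2 scale, with a read ratio between 0.24 and 0.38, and it became 0.01 after scaling to the median gene.

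Slco3a1, a widely expressed carrier, was the gene higher in the CCl4 library by more than the limit. Its more abundant transcript, NM_001038643, measured 2.63 RPKM with oil and 5.61 RPKM with CCl4, which is 1.06 on the log2 scale. The other, NM_023908, measured 1.89 and 3.52 RPKM, which is 0.86. The interval of the read ratio, 0.93 to 1.26, spans the limit of 1. With 1 RPKM added, with scaling to the median gene or with the 2 transcripts summed, Slco3a1 was under the limit, at 0.86, 0.77 and 0.997. The gene was higher under each of these settings, and its place past the limit depended on them.

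Among the Slc22a carriers, Slc22a7, an organic anion transporter that carries nucleotides and prostaglandins, was at 15.0 RPKM in oil and 3.24 RPKM in CCl4. Its log2 fold change was -2.18 with an interval of -2.37 to -2.06. Slc22a30, a gene related to the organic anion transporters, was at 22.7 and 4.86 RPKM, a difference of -2.20 on the log2 scale. Both kept close to the same share of the oil level, 21.6% and 21.5%, and they held ranks 50 and 49 from the lowest among all genes. Since only at least 209 and at least 50 reads could be recovered for Slc22a30, its interval was wider, from -2.70 to -1.77.

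Slc22a30 belongs to a row of related genes on chromosome 19, which runs from Slc22a19 through Slc22a26, Slc22a27, Slc22a28, Slc22a29 and Slc22a30 to Slc22a8 and Slc22a6, between 7673075 and 8628299. Of these 8 genes only Slc22a30 and Slc22a28 had a value. Slc22a28 had 2.31 RPKM with oil and was listed at 0 in the CCl4 library, so that no fold change is given. Of the 12012 genes with a value, 1.34% were listed in oil alone. The genes of this row are similar copies, and their reads may have been split between them.

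The imprinted gene Slc22a18 was at 26.2 RPKM in oil and 14.0 RPKM in CCl4, with a log2 fold change of -0.89. Its other transcript, at 24.8 and 13.3 RPKM, gave the same value. Slc22a23, a carrier without a known substrate, was at 8.01 and 4.79 RPKM, or -0.73 on the log2 scale. Both stayed within the limit as deposited and were past it, at -1.19 and -1.03, after scaling to the median gene.

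Slc22a5, the sodium-dependent carnitine transporter, stood apart from the other hepatocyte Slc22a genes. It had 5.29 RPKM with oil and 6.35 RPKM with CCl4, a log2 fold change of 0.26 that became -0.04 with scaling to the median gene. Its neighbors on chromosome 11, Slc22a21 and Slc22a4, were listed at 0. Slc22a17, known as a receptor of lipocalin, was listed at 0 in the oil library and at 2.22 RPKM in the CCl4 library. Being listed in CCl4 alone was common, at 9.67% of the 12012 genes with a value.

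Slc47a1, which exports organic cations into bile, was at 17.5 RPKM with oil and 10.1 RPKM with CCl4. Its log2 fold change was -0.79 (interval -0.92 to -0.67), and -1.09 with scaling to the median gene. The neighboring Slc47a2 was listed at 0.

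**Figure D2:**
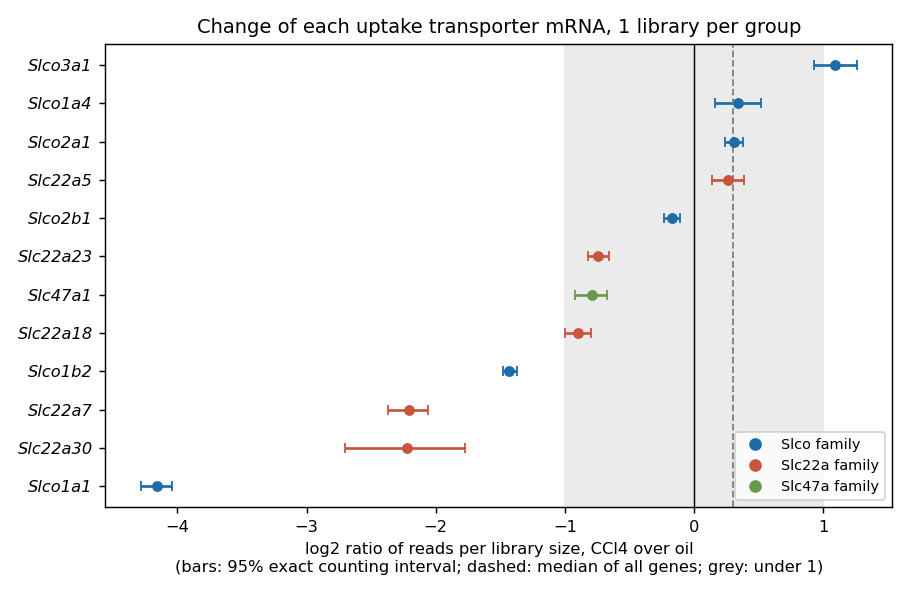
Log2 ratio of reads per library size, CCl4 over oil, for the 12 uptake transporter genes with a value in both libraries, with 95% exact Clopper-Pearson intervals that cover counting error only. The bar of Slco1a1, from -4.28 to -4.04, lies apart from all others, and the bar of Slco3a1 crosses the limit of 1.

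Summed over the genes described, the mRNA was at 45.5% of its oil level, 268.7 RPKM with oil and 122.3 RPKM with CCl4. The Slco sum went from 171.6 to 76.7 RPKM and the Slc22a sum from 79.5 to 35.5 RPKM, so both kept nearly the same part of the total, 63.9% and 29.6% in oil against 62.7% and 29.0% in CCl4. The sums rest on few genes, since the median log2 fold change was 0.07 over the 6 Slco genes and -0.89 over the 5 Slc22a genes with a value in both libraries. Without Slco1b2 and Slco1a1 the sum of all genes was at 64.9% of its oil level, and over the genes not lower by the limit it was at 81.4%. The makeup differed more. Slco1b2 and Slco1a1 together held all but 50.2% of the oil sum and all but 71.6% of the CCl4 sum. Slco1a1 went from 17.7% to 2.18% of the sum and Slco1b2 from 32.1% to 26.2%. Slco2b1 went from 7.81% to 15.2% and Slco2a1 from 4.53% to 12.4%.

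The order of the levels differed between the libraries. In the oil library it ran Slco1b2, Slco1a1, Slc22a18, Slc22a30, Slco2b1, Slc47a1, Slc22a7, Slco2a1, Slc22a23, Slc22a5, Slco3a1, Slc22a28 and Slco1a4. Neighbors whose counting intervals overlapped were Slc22a18 and Slc22a30, Slc22a30 and Slco2b1, and the last 3 genes in turn. In the CCl4 library Slco1b2 kept the first place and was followed by Slco2b1, Slco2a1, Slc22a18, Slc47a1, Slc22a5, Slco3a1, Slc22a30, Slc22a23, Slc22a7, Slco1a1, Slco1a4 and Slc22a17. Overlap was seen there for Slco2a1 and Slc22a18, for Slco3a1, Slc22a30 and Slc22a23 in turn, and for the last 3 genes in turn. All these intervals rest on reads recovered as lower bounds, so they can be wider than the true counting error. The shortest lengths used were 159 bases for Slc22a30, 431 for Slc22a17 and 501 for Slc22a28. An overlap that involves these genes may therefore come from the recovery of reads. Slco1a1 moved from place 2 to place 11.

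**Figure D3:**
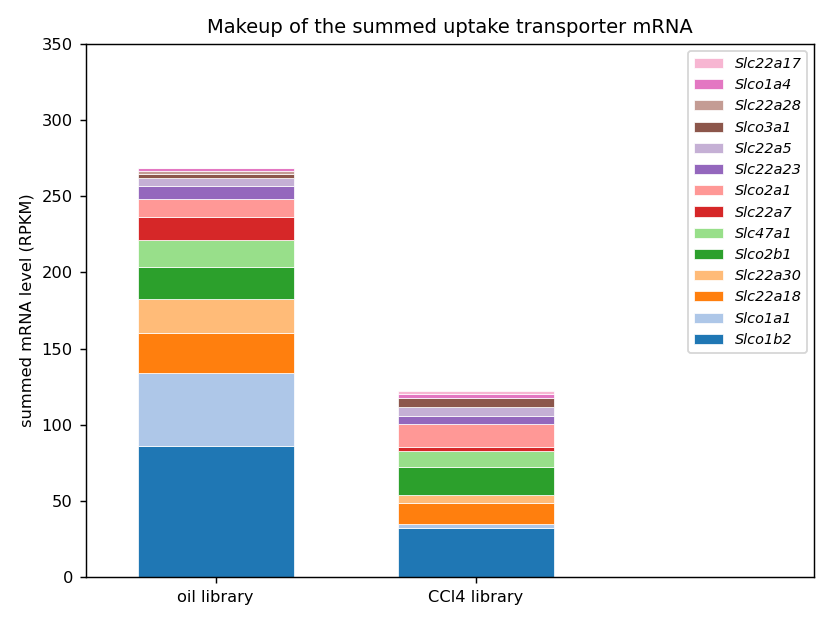
Summed level of the listed uptake transporter mRNAs (RPKM) in the oil and the CCl4 library, stacked by gene. The total is 268.7 RPKM in oil and 122.3 RPKM in CCl4, and the Slco1a1 segment shrinks from 17.7% to 2.18% of it.

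The cell type markers of the 2 preparations differed alongside the carriers. Of the 8 hepatocyte genes, 7 had a value in both libraries, with a median log2 fold change of -0.74. All 7 were lower with CCl4, against 32.4% of all genes, and 3 were lower by the limit, against 5.48%. Albumin (Alb) was at 8656 and 6476 RPKM, Apoa1 at 4086 and 1650 RPKM, and Ttr at 2047 and 1250 RPKM, and the fetal marker Afp was listed only with CCl4. Their log2 fold changes ran from -2.33 to -0.42. Slco1a1 was below all 7, whereas Slc22a30, Slc22a7, Slco1b2, Slc22a18, Slc47a1 and Slc22a23 lay inside this range, with 6 of the 7 markers above Slc22a30 and Slc22a7, 5 above Slco1b2, 4 above Slc22a18 and Slc47a1, and 3 above Slc22a23. Slco2b1, Slco2a1, Slco1a4, Slc22a5 and Slco3a1 were above all 7.

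Markers of other liver cells were present in both libraries and mostly higher with CCl4. All 9 stellate cell and myofibroblast genes were higher by the limit, and their summed level went from 80.5 to 877.4 RPKM. Of 5 Kupffer cell genes 3 were higher by the limit (sum from 499 to 888 RPKM). So was 1 of 5 sinusoidal endothelial genes (sum from 384 to 633 RPKM). The same held for 2 of 4 cholangiocyte genes (sum from 50.9 to 170.2 RPKM), while Sox9, also a cholangiocyte marker, was listed at 0 in both libraries. Among all genes 14.3% were higher by the limit, and only 32.4% were lower in value. The 5 endothelial genes had log2 fold changes from 0.67 to 1.05, above that of the prostaglandin transporter Slco2a1 in all 5 and above that of Slco3a1 in none. Above Slco3a1 were 9 of 9 stellate cell, 3 of 5 Kupffer cell and 1 of 4 cholangiocyte genes. For Slco2a1 these numbers were 9, 4 and 4. The part of these cells in the levels of Slco2a1, Slco3a1, Slco1a4 and Slc22a17 was not tested.

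Bile acid and other organic solute carriers outside the 3 families were also lower in part. Of 14 such genes with a value in both libraries, 5 were lower and none higher by the limit, against 5.48% and 14.3% of all genes. The 14 genes had a median of -0.57. The 5 were Slc10a2, Slc10a5, Slc17a2, Slc17a3 and Slc19a2. Slc10a1, the sodium-dependent bile acid transporter of hepatocytes, had 100.9 RPKM with oil and 65.3 RPKM with CCl4, or -0.63 on the log2 scale. In the oil library Slco1b2 was below Slc10a1, and in the CCl4 library Slco1b2 stood further below it. The nucleoside transporter Slc29a1, at 102.6 and 110.4 RPKM, differed little. Slc17a2, of the sodium phosphate transporter family, was at 29.3 and 8.97 RPKM.

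Of the canalicular and basolateral efflux pumps and flippases, 4 of 12 were lower and 1 was higher by the limit. Among all genes these shares were 5.48% and 14.3%, and the pumps and flippases had a median of -0.81. The lower ones were the bile salt pump Abcb11, Abcg5 and Abcg8, which together export sterols, and Abcc6, which is not known as a bile acid pump, and the higher one was Abcc1. Abcb11 was at 76.2 and 32.7 RPKM, or -1.22 on the log2 scale, beside -1.42 for Slco1b2. Abcc2, the canalicular pump of bilirubin conjugates, was at 28.5 and 16.4 RPKM, and Abcc3, which returns conjugates to blood, was at 27.7 and 28.6 RPKM. Neither was past the limit.

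Most regulators known to act on uptake transporter genes had a lower value with CCl4, a few of them past the limit. Among 18 with a value in both libraries, 15 were lower and 3 higher in value, where 32.4% of all genes were lower in value. By the limit 3 were lower, against 5.48% of all genes, and none higher, with a median of -0.56. The 3 were Hnf4a, Foxa3 and Nr0b2. Hnf4a, a master regulator of hepatocyte genes, was at 148.9 and 50.1 RPKM, or -1.57 on the log2 scale. Cebpb was at 114.2 and 88.3 RPKM, and Cebpa at 92.5 and 98.1 RPKM. After scaling to the median gene, 8 of the 18 were lower by the limit, against 9.74% of all genes.

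Proteins that hold transporters at the membrane had no common direction, with a median of 0.15. By the limit 1 of 8 was lower (Pdzk1) and 1 higher (Msn), against 5.48% and 14.3% of all genes. Basigin (Bsg) was at 144.5 and 143.9 RPKM, the scaffold Slc9a3r1 at 79.3 and 56.9 RPKM, and its relative Slc9a3r2 at 23.9 and 42.4 RPKM. Genes of carnitine metabolism and transport, listed for their link with Slc22a5, had 1 of 8 lower and none higher by the limit. Their median was -0.45, and the shares of all genes were again 5.48% and 14.3%. Crot was at 107.8 and 41.5 RPKM, Cpt1a at 34.4 and 33.9 RPKM, and Cpt2 at 32.3 and 17.0 RPKM. Slc22a5 itself, at 0.26, lay above the median of these genes.

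**Figure D4:**
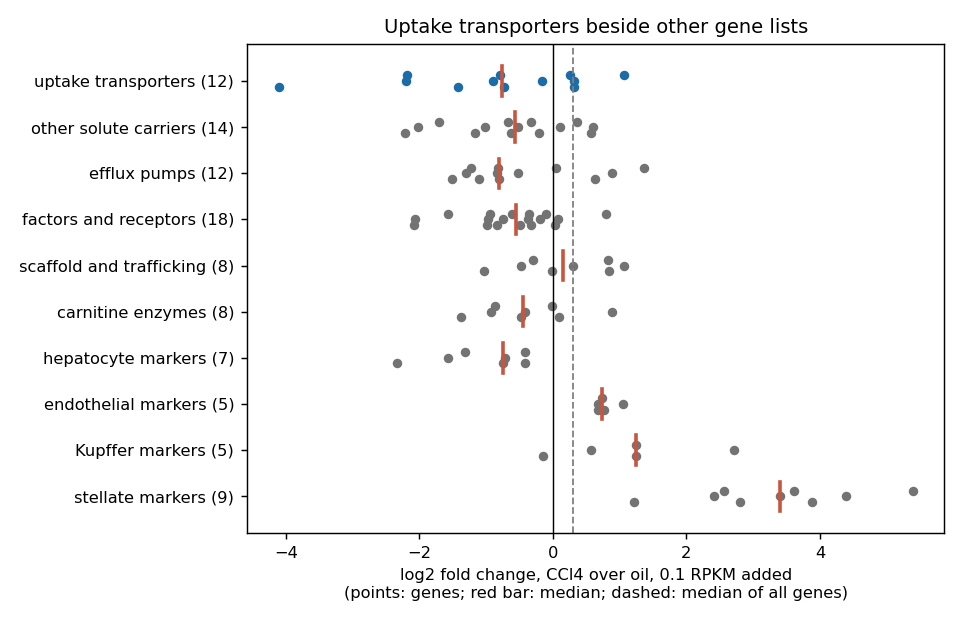
Log2 fold change (CCl4 over oil, 0.1 RPKM added) of each gene with a value in both libraries, by gene list, with the number of genes in parentheses, red bars at the medians and a dashed line at the median of all genes, 0.30. The lowest uptake transporter is Slco1a1 at -4.11, and the 12 genes have a median of -0.76 that is close to the -0.81 of the efflux pumps and the -0.74 of the hepatocyte markers.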

How the data were processed

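RNA was sequenced from 2 preparations of primary mouse hepatocytes, 1 per group, which were assigned by the treatment given in the labels. The mRNA levels deposited by the authors carry no unit of their own and were read as RPKM, the unit in the header of the companion table of new lncRNAs, with values under 1 listed as 0 (the paper's text speaks of FPKM). The recovered reads and their intervals depend on this reading. For new lncRNAs the authors also deposited read counts and lengths. The submitters' processing notes name CASAVA 1.4, TopHat2 and the build mm10, and the counting program is not given in the sources used here. Columns with the authors' own log2 changes, p-values and q-values were not used.

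RefSeq identifiers were paired with symbols through the GRCm38.p6 gene table (27049 of 27457 mRNA transcripts). A gene was compared where both libraries listed a value, and the limit was a log2 fold change of 1 in either direction, with 0.1 RPKM added to each value. Library totals of 57992574 (oil) and 64655540 (CCl4) reads were those that gave whole reads, within 0.05 or the rounding of the value, in 216 of 225 and 229 of 240 genes shorter than 400 bases. The reads at the shortest length, from 50 bases, that made both values whole served as a lower bound for a transcript. On 1397 new lncRNAs with known counts, and with the library totals that their own counts and RPKM give, these were equal in 83.2% and never above. This check was not run on the mRNAs or with the totals above. The counts and RPKM of the new lncRNAs gave other library totals, 62438202 (oil) and 70960847 (CCl4) reads. Why they differ from the totals above was not tested. The 95% intervals hold the error of counting alone, and can be too wide where the recovered reads are fewer than the true reads. How PCR duplicates of a molecule were treated and strand use in counting are not given in the sources used here. The calculations were tested on simulated data.

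Of the genes that the symbols match, 1 is not reported here and is left out of the counts, medians and sums of the transporters. Named were all other transporter genes and, for some of the lists, genes among the 3 with the highest mean level, and, chosen after their values were seen, Afp, Sox9, Axin2, Hsd17b13 and the members of short counts past the limit. The genes and lists were chosen with earlier results of these data known. Alternatives were other pseudocounts, scalings, transcript choices and limits. Intervals were computed with scipy 1.17.1, tables with pandas 2.3.3 under Python 3.11.15, and plots with matplotlib 3.10.9.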

Additional observations from a re-analysis of the deposited data

Results flagged for a closer look

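Airn, the antisense RNA of the imprinted locus that also holds Slc22a2 and Slc22a3, is in the annotated lncRNA table, which the comparisons above do not use. It was picked out because 2 of its 4 transcripts were listed in the CCl4 library at 1.22 RPKM (NR_002853) and 1.18 RPKM (NR_027784) and at 0 in the oil control library. Both values lie close to the listing limit of 1 RPKM, and the other 2 transcripts were listed at 0 in both libraries. Slc22a2 and Slc22a3 were listed at 0 in both libraries.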

How the results depend on the processing

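With 1 library per group the stated error is that of counting, and differences between preparations were not measured. No paired analysis was possible because each group had 1 library. Of 72 alternative values of single transporters, 71 kept their direction and 66 their side of the limit. Of the 161 alternative counts and medians, 123 stayed close to the value reported and 38 moved.

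Scaling to the median gene lowers every log2 fold change by about 0.30, which shifts the split of all genes to 856 higher and 1041 lower from 1527 and 586, with a median of 0. The transporters then had a median of -1.06 with 7 lower and 0 higher, the other solute carriers a median of -0.86, the efflux pumps -1.11 with 7 lower, the regulators -0.86 with 8 lower, the scaffold proteins -0.15 with 0 higher, and the carnitine enzymes -0.75 with 3 lower. Slc22a5 became -0.04, and Slc22a18, Slc22a23 and Slc47a1 passed the limit. With the 10 most abundant genes left out of the sums, the solute carriers had a median of -0.63 and 5 regulators were lower.

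The number of higher transporters, 1, was 0 with 1 RPKM added, with summed transcripts, at a mean of at least 5 RPKM and at a limit of 2, and 2 with listed zeros set to 1 RPKM. With 1 RPKM added, the medians were -0.45 for the solute carriers and -0.72 for the efflux pumps, and 0 scaffold proteins were lower. At a mean of at least 5 RPKM, 951 genes were higher, the medians were -1.01 for the solute carriers, -0.67 for the regulators and -0.01 for the scaffold proteins, and 0 efflux pumps were higher. At a limit of 2, 188 genes were higher and 75 lower, with 3 transporters and 2 solute carriers lower and 0 efflux pumps, scaffold proteins or carnitine enzymes past it in either direction. Stricter limits lower these counts by construction, and the cause of the other moves was not tested.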

Other observations

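Genes that are more abundant in male than in female mouse liver, a group to which Slco1a1 is known to belong, were lower throughout with CCl4. Of 12 such genes, 8 had a value in both libraries and all 8 were lower by the limit, against 5.48% of all genes. These 8 had log2 fold changes from -4.90 to -1.12 and a median of -3.10. Another 4 were listed in the oil library alone, as were 1.34% of all genes with a value. Serpina1e was at 4890 RPKM in oil and 339 RPKM in CCl4, Mup20 at 1851 and 327 RPKM, and Selenbp2 at 491 and 19.5 RPKM. The value of Slco1a1, -4.11, lies within the range of these genes. The other transporters lower by the limit, Slc22a30, Slc22a7 and Slco1b2, lie within it too, at -2.20, -2.18 and -1.42. Of 12 genes more abundant in female liver, 10 were listed at 0 in both libraries, and Cyp2b9 and Cyp2a4 were listed with CCl4 alone, at 2.4 and 3.41 RPKM.

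Markers of both ends of the liver lobule were mostly lower in the CCl4 library. Of 9 pericentral genes with a value in both libraries, 5 were lower by the limit with a median of -1.24, against 5.48% of all genes. So were 6 of 10 periportal genes with a median of -1.08. The exceptions were the pericentral Axin2, listed at 0 with oil and at 2.06 RPKM with CCl4, and the periportal Hsd17b13, at 0.16 on the log2 scale. Slco1b2, at -1.42, lay near these medians. Of 3 erythroid genes 1 was lower by the limit, with a median of -0.54. Of the genes around Slc22a2 and Slc22a3, Plg was at 346.5 and 157.7 RPKM, Igf2r at 6.38 and 12.6 RPKM, and Mas1 was listed at 0.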
